A study of Rattus norvegicus with 5 samples.

Results

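Transforming growth factor beta (TGF-beta) signalling was read here through 9 rat genes: the ligands Tgfb1, Tgfb2 and Tgfb3, the receptors Tgfbr1 and Tgfbr2, and the intracellular mediators Smad2, Smad3, Smad4 and Smad7. They were taken as named members of the pathway and found by matching each array probe's accession to the RefSeq gene table. All 9 were on the array, with 11 probes, out of 15167 genes with 18004 named probes. Expression was measured with one-colour Agilent arrays in BRL-3A cells, a line derived from Buffalo rat liver, in a study of Tmub1, which encodes a ubiquitin-like protein of cell membranes. The 5 groups, each of 1 array, were cells given a Tmub1 overexpression lentivirus (Lv-Tmub1(+)), the negative control virus of that vector, a Tmub1 knockdown lentivirus (Lv-Tmub1(-)), the negative control virus of the knockdown vector, and normal control cells. All cells grew in medium with 10% fetal bovine serum, and the transduced ones were collected 48 h after transduction. The labels do not give the promoter of the vectors, the knockdown sequence, the share of cells transduced or how many cultures went into an array.

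TGF-beta ligands are secreted in a latent complex and, once released, bind the type II receptor, which recruits and phosphorylates the type I receptor. The type I receptor then phosphorylates SMAD2 and SMAD3, which join SMAD4 and enter the nucleus to control target genes, while SMAD7 is induced by the pathway and blocks it at the receptor. In liver the pathway is known for holding back hepatocyte proliferation, for hepatocyte death and for matrix production by stellate cells.

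Values are the log2 processed signal of a probe minus the 75th percentile of its array, so 0 is the upper quartile of that array, and they are compared for a probe between arrays, never between probes. A difference was called at 2.5-fold, as the design text of the series names it, with the brighter array well above background by the scanner software. Each difference has a 95% interval from the software's error of the spots, about 0.40 log2 units to either side for bright probes. That interval covers spot reading alone. With 1 array per group, no difference could be set against a spread between replicates, and no test was made. In such bulk RNA, a change in the number of cells of a type and a change in RNA per cell cannot be told apart.

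Each array gave 42877 non-control spots with none saturated, and 67% to 86.6% of probes were well above background. The knockdown array was brighter than its own control, with a median processed signal of 180.2 against 78.4 and 80.9% against 73% of probes well above background. The part of this gap in the differences between these 2 arrays was not tested. Tmub1 stood at -1.42 in knockdown cells, against 0.45 in the knockdown control, a 3.65-fold lower level. On the array labelled overexpression it stood at 0.44, against 0.37 in its negative control, a difference of 0.07. The probe thus showed no rise on the array labelled overexpression, and whether it can detect the vector's transcript is not known from the files. The 4 transduced arrays were read in the same scan and the normal array in another, so scan and transduction cannot be told apart in comparisons with normal cells. Between 6 and 8 of 10 hepatocyte markers were above background per array. Tat (tyrosine aminotransferase) was above it on none, and Alb (albumin) only on the array labelled overexpression and on the knockdown control array. Of the 10 stellate cell and fibroblast markers, 9 were above background on the normal array and all 10 on each other array. All 5 macrophage and leukocyte markers measured were above background on the transduced arrays and 3 of 5 on the normal array, where Lyz2 (lysozyme) and Ptprc (CD45) were not. Summed processed signals, not scaled between arrays, ran from 1057 to 1701 for the hepatocyte list, 121000 to 242200 for the stellate and fibroblast list, and 2228 to 10220 for the leukocyte list. Against normal cells, 5 of 10 stellate and fibroblast markers were called in the overexpression control and 4 in the knockdown control, all higher, with medians of 1.30 and 0.60. Of the 5 leukocyte markers, 4 were called as higher in each, with medians of 2.93 and 3.13. Over all genes, 17.3% were called in the overexpression control and 16.5% in the knockdown control, in either direction. The widest gaps in the stellate and fibroblast list were those of Dcn (decorin), Lum (lumican) and Pdgfra. Dcn stood between 1.14 and 1.83 on the transduced arrays and at -4.26 on the normal array. Lum stood between -1.79 and -0.91 on the transduced arrays and at -5.94 on the normal one, and Pdgfra between -2.10 and -1.35 and at -8.60. Other markers of the list did not share this gap. Col1a2 was highest on the normal array, at 5.81, against 4.24 to 5.76 on the transduced ones. Acta2 stood at 3.55 on the normal array, within its range of 2.66 to 5.14 on the transduced ones. The part of these marker differences in the results was not tested.

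In knockdown cells the type II receptor and Smad2 stood more than 2.5-fold above the knockdown control, and no member stood that far below it. Tgfbr2, the ligand-binding receptor, stood 3.63-fold higher in knockdown cells than in the knockdown control. Smad2, a receptor-activated SMAD, stood 4.83-fold higher. Tgfbr1, the signalling kinase of the receptor pair, stood 2.46-fold lower and Tgfb3 2.42-fold higher, both just short of 2.5-fold. Of the 8 members whose difference could be read, 2 were therefore called, both higher. Over all genes, 18.5% were called in either direction and 8.44% as higher (1079 of 12785). The 12785 include genes, such as Smad3, whose brighter array was not above background and whose difference was left out. A difference was given for 12282, and the other shares over all genes were counted in the same way. The median member difference was 0.61, beside -0.21 over all genes, a median that ran from -0.42 to 0.11 over the other scalings.

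Tgfbr2 and Smad2 were the members past 2.5-fold against all 3 control arrays, always as higher in knockdown cells. Compared with the overexpression control, 3 members were called higher (Tgfbr2, Smad2 and Smad4) and 2 lower (Tgfbr1 and, on its main probe, Tgfb2), with 28.8% of all genes called (13.2% higher and 15.6% lower). Compared with normal cells, Tgfbr2 and Smad2 were called higher and Tgfb2 lower, with 30.5% of all genes called (11.2% higher and 19.3% lower). The 3 comparisons share the knockdown array, so they are not independent of each other.

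**Figure D1:**
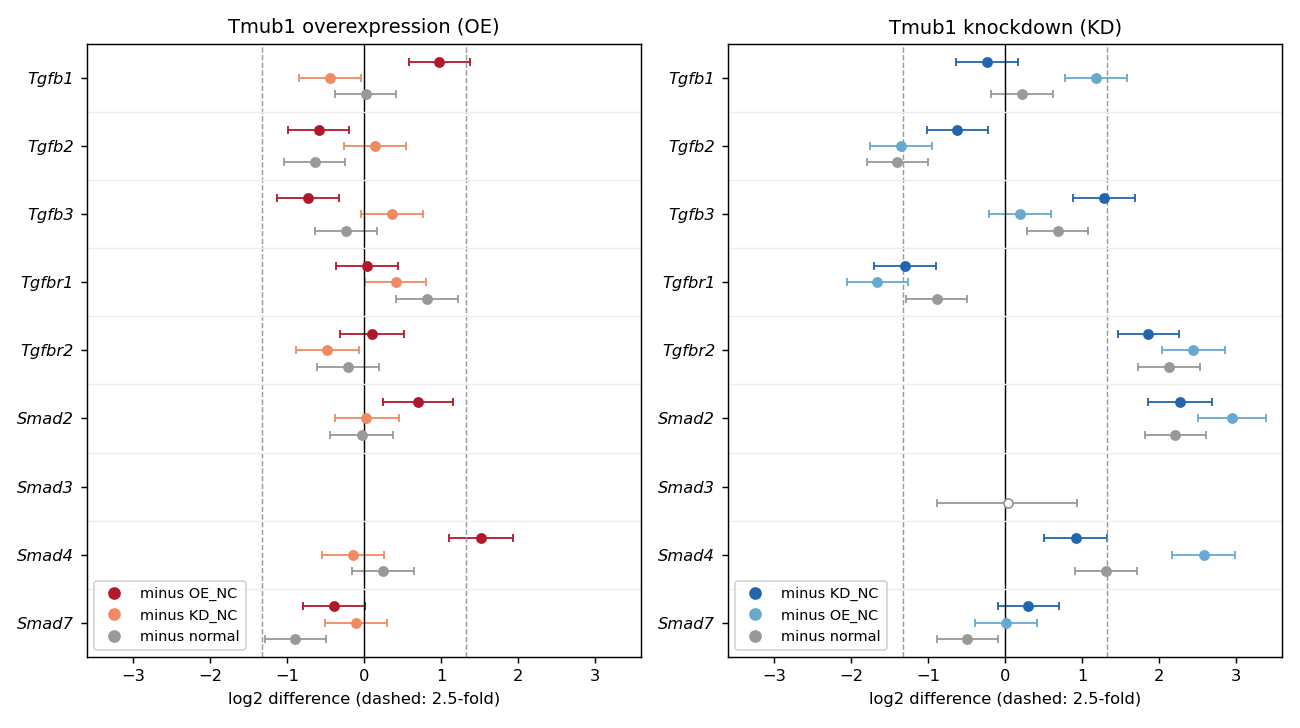
Log2 difference of each member's main probe (horizontal axis) for the array labelled overexpression (left) and the knockdown array (right), each minus its own negative control, minus the other negative control and minus normal cells. Bars are 95% intervals of spot reading, dashed lines mark 2.5-fold, and the open point is a bound. Tgfbr2 and Smad2 lie past the right dashed line in all 3 knockdown comparisons, whereas Smad4 on the left lies past it only against the overexpression control.

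The start regions of the members that moved furthest in knockdown cells, in either direction, are shown because they allow the 2 receptors and Smad2 to be set side by side. The sequences are from RefSeq (GRCr8), 250 bases before to 50 bases after the gene start, printed along the gene's strand with each CCAAT box, in either orientation, in capitals. Tgfbr2 is at chr8:124761420-124761719 (minus strand), Smad2 at chr18:72125094-72125393 (plus strand, the first of its 2 start entries) and Tgfbr1 at chr5:66449148-66449447 (plus strand).
Tgfbr2: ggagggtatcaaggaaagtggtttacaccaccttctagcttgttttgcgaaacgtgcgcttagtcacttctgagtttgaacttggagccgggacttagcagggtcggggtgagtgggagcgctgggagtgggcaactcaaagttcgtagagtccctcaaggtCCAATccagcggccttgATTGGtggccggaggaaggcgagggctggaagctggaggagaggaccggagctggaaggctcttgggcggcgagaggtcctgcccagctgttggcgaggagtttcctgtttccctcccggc
Smad2: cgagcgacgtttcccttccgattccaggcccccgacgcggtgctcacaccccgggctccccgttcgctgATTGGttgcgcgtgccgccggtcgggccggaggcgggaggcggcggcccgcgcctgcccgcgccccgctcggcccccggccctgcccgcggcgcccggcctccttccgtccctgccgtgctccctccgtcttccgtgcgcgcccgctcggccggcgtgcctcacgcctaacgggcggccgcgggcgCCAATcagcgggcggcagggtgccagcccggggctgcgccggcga
Tgfbr1: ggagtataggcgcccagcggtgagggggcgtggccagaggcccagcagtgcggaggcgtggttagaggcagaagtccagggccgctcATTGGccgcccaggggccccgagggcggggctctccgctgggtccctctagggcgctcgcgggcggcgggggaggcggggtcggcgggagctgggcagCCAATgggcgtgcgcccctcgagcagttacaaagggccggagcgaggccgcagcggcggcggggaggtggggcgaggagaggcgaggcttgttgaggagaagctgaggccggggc

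All 3 windows hold 2 CCAAT boxes, and 11.2% of all windows hold 2 or more. They hold 1, 2 and 3 GC boxes (GGGCGG) in Tgfbr2, Smad2 and Tgfbr1. Matches were counted on both strands and the 2 motifs do not overlap. The window at the second Smad2 start holds 1 CCAAT box and 5 GC boxes. Of the other members, Smad4 holds 1 CCAAT box, and Tgfb1, Tgfb2, Tgfb3, Smad3 and Smad7 hold none. The windows shown were chosen by the size of the difference in knockdown cells. Tgfb3 was next, at 1.28 beside -1.30 for Tgfbr1, and holds neither motif. Among 33365 different rat promoter windows of the same length, 37.5% hold a CCAAT box, 33.1% a GC box and 11.9% both. Tgfbr1, lower in knockdown cells but short of 2.5-fold against their control, holds both motifs. So do Tgfbr2 and Smad2, which were higher in knockdown cells than in that control. Whether the motifs bear on the differences was not tested. None of the 10 start windows of the 9 members holds the SMAD half-site CAGAC, which 50.1% of all windows hold, nor the palindrome GTCTAGAC, which 0.198% hold. Neither motif is in these 300 bases, and nothing follows from that about binding elsewhere.

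Tgfb1 encodes the main TGF-beta isoform of injured liver. Its probe had 10 spots on the array, and the levels were -0.05 on the array labelled overexpression and -1.03 in its control, 0.15 in knockdown cells and 0.39 in their control, and -0.08 in normal cells. The overexpression control alone was low, and the other 4 arrays spanned 0.46. The 10 spots of the low array varied with a coefficient of variation of 14.2%, the widest of the 5 arrays, beside 3.50% to 9.88% on the others. The difference was 0.98 (95% interval of spot reading 0.58 to 1.38) between the array labelled overexpression and its control, and -0.24 (-0.64 to 0.16) between knockdown cells and theirs. Taken against the knockdown control, the array labelled overexpression differed by -0.44, so the direction turned with the control used.

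Tgfb2 encodes the isoform that needs a co-receptor to bind the type II receptor tightly. Its main probe read 1.72 on the array labelled overexpression and 2.31 in its control, 0.95 in knockdown cells and 1.58 in their control, and 2.36 in normal cells. Knockdown cells were lowest, by 0.62 (0.22 to 1.02) below their own control, 2.56-fold below the overexpression control and 2.65-fold below normal cells. The other Tgfb2 probe did not follow this order. It read -3.0 and -3.33 on the array labelled overexpression and in its control, -2.50 and -3.08 in knockdown cells and their control, and -2.21 in normal cells. On that probe knockdown cells stood 0.58 above their control, so the 2 probes disagreed in sign for both viruses and no direction can be given for the gene.

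Tgfb3, the third isoform, read 2.14 on the array labelled overexpression and 2.86 in its control, 3.05 in knockdown cells and 1.77 in their control, and 2.37 in normal cells. Knockdown cells were highest and their own control was lowest. The difference between these 2 arrays was 1.28 (0.88 to 1.68), or 2.42-fold. Against the overexpression control it was only 0.19 and against normal cells 0.68. The knockdown control itself stood 1.09 below the overexpression control and 0.60 below normal cells. It was 0.36 below the array labelled overexpression, within the spot reading error. Which array accounts for the gap was not tested. Over the 9 other ways of scaling or filtering, the difference between knockdown cells and their control ran from 1.12 to 1.85 and passed 2.5-fold in 5.

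Tgfbr1 read 2.37 on the array labelled overexpression and 2.33 in its control, 0.66 in knockdown cells and 1.96 in their control, and 1.55 in normal cells. Knockdown cells were lowest, and the 4 other arrays lay at 1.55 or above. Knockdown cells stood 1.30 (0.90 to 1.70) below their own control, 1.66 below the overexpression control (3.17-fold) and 0.89 below normal cells (1.85-fold). Over the 9 other ways of scaling or filtering, the difference from their own control ran from -1.45 to -0.87 and passed 2.5-fold in 1. The difference between the array labelled overexpression and its control was 0.04 (-0.36 to 0.44).

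Tgfbr2 read -2.24 on the array labelled overexpression and -2.34 in its control, 0.10 in knockdown cells and -1.76 in their control, and -2.03 in normal cells. Only the knockdown array stood apart: the other 4 spanned 0.58, and each neighbouring pair among them differed by less than the spot reading error. Knockdown cells were 1.86 (1.46 to 2.26) above their own control, 5.42-fold above the overexpression control and 4.38-fold above normal cells. The second Tgfbr2 probe also read highest in knockdown cells, at -1.82, against -3.65 in their control, -5.18 on the array labelled overexpression and -4.29 in normal cells, and it was not above background in the overexpression control. Its difference between knockdown cells and their control was 1.82 (1.40 to 2.25), close to that of the main probe. The 2 probes did part on the other arrays, since this dimmer one put the array labelled overexpression 1.53 below the knockdown control and the main probe 0.48 below it.

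**Figure D2:**
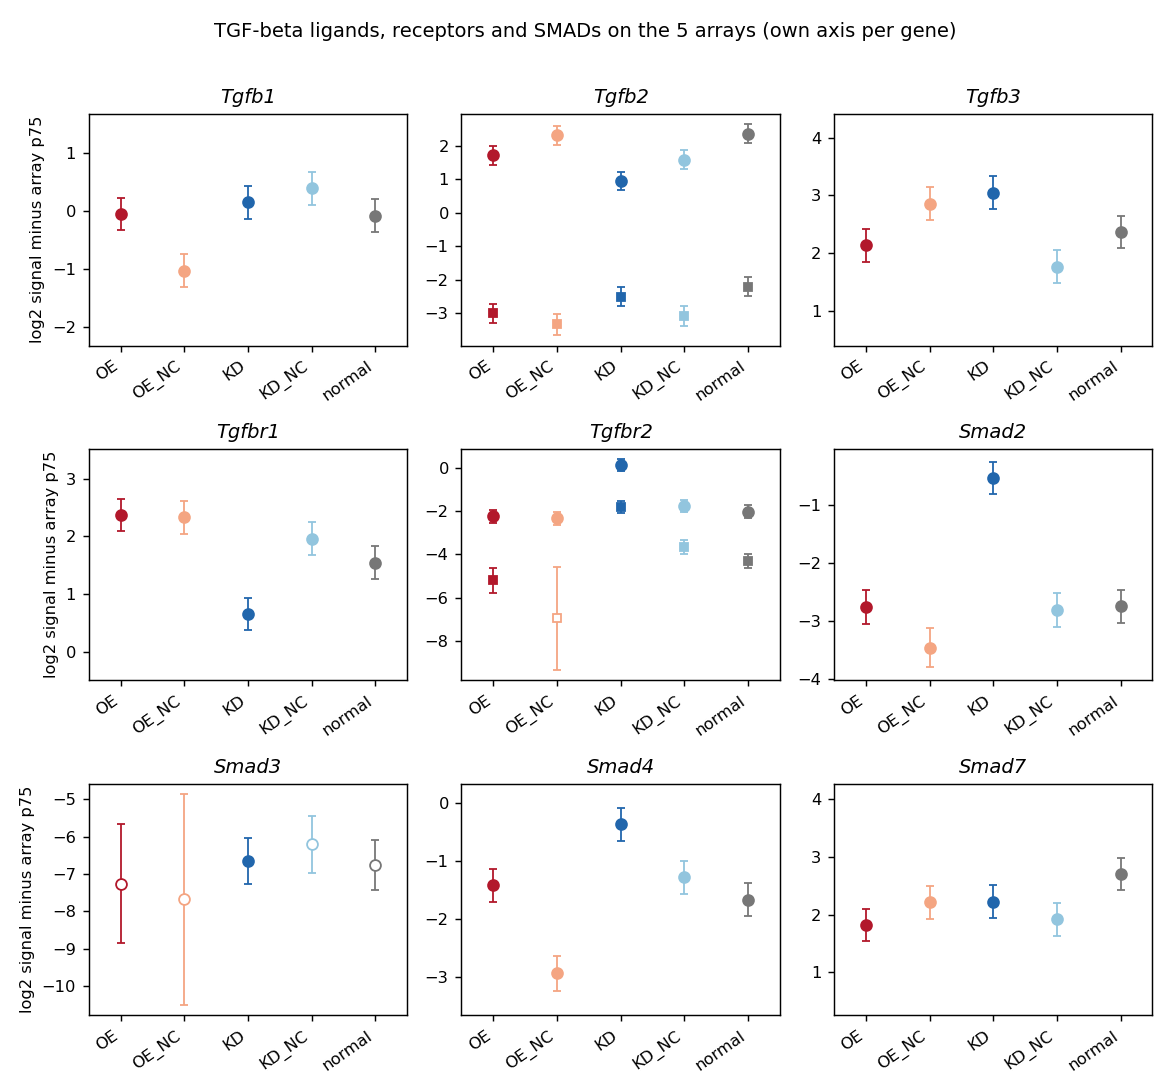
Log2 signal minus the array's 75th percentile for each member on the 5 arrays: overexpression (OE), its negative control (OE_NC), knockdown (KD), its negative control (KD_NC) and normal cells. Circles are main probes, squares second probes, open symbols are not well above background, and bars are 95% intervals of spot reading, with an axis of its own for each gene. The knockdown point stands above the other 4 for Tgfbr2 and Smad2 and below them for Tgfbr1, and the overexpression control stands below them for Tgfb1 and Smad4.

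Smad2 read -2.77 on the array labelled overexpression and -3.47 in its control, -0.54 in knockdown cells and -2.81 in their control, and -2.75 in normal cells. As for Tgfbr2, the knockdown array was high and 3 of the other 4 lay within 0.06 of each other, with the overexpression control lower. Knockdown cells were 2.27 (1.86 to 2.68) above their own control, 7.66-fold above the overexpression control and 4.63-fold above normal cells. The gene is read from 1 probe. Its difference stayed between 1.83 and 2.58 over the 9 other ways of scaling or filtering, and that of Tgfbr2 between 1.45 and 2.17, all past 2.5-fold. The difference between the array labelled overexpression and its control was 0.70 (0.25 to 1.15), against 0.03 when the knockdown control took its place.

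Smad3, the other receptor-activated SMAD, could hardly be read. Its single probe was well above background on the knockdown array alone, at -6.65. The measured values were -7.26 on the array labelled overexpression, -7.68 in its control, -6.21 in the knockdown control and -6.75 in normal cells, all within background. No difference can be given for either virus against its control, and for knockdown over normal cells there is only a bound, whose interval (-0.88 to 0.93) spans 0. Whether Smad3 followed Smad2 was not detectable with this probe.

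Smad4, the partner of all receptor-activated SMADs, read -1.42 on the array labelled overexpression and -2.94 in its control, -0.37 in knockdown cells and -1.28 in their control, and -1.67 in normal cells. Knockdown cells were highest and the overexpression control lowest, with the other 3 arrays within 0.39 of each other. Knockdown cells were 0.92 (0.51 to 1.32) above their own control, or 1.89-fold, 2.47-fold above normal cells and 5.97-fold above the overexpression control. They were higher than every other array, and 2.5-fold was passed only against the overexpression control.

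Smad7, the inhibitory SMAD that the pathway itself induces, varied least. It read 1.82 on the array labelled overexpression and 2.21 in its control, 2.22 in knockdown cells and 1.92 in their control, and 2.70 in normal cells. The whole span was 0.89, and no comparison passed 2.5-fold. The difference between knockdown cells and their control was 0.30 (-0.10 to 0.70), within the spot reading error, and it was -0.39 (-0.79 to 0.01) for the array labelled overexpression. Of the 8 members above background on all 5 arrays, 4 (Tgfbr1, Tgfbr2, Smad2 and Smad4) had a span above 1.44, the median of the 10681 genes above background on all 5 arrays.

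With the overexpression virus, 1 of the 8 readable members was called, Smad4 as higher, with 2.69% of all genes called (1.69% as higher, 200 of 11851). Smad4 stood 1.52 (1.11 to 1.94) above the overexpression control, or 2.87-fold. Against the knockdown control the same array stood at -0.14, and against normal cells at 0.25. The call was thus made only against the overexpression control. No member was called when either other control was used, where 4.03% and 16.4% of all genes were called for the knockdown control and normal cells. The median member difference was 0.07, beside 0.00 over all genes.

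The 2 negative control viruses were also set against each other. The knockdown control stood above the overexpression control by 1.42 (1.02 to 1.82) for Tgfb1 and by 1.66 for Smad4, which made 2 of 8 members called, with 8.53% of all genes called, 5.18% as higher. Over 9 other scalings and filters, Smad4 passed 2.5-fold in 8 and Tgfb1 in 5. Against normal cells no member was called in the overexpression control or in the knockdown control, where 17.3% and 16.5% of all genes were called. The lowest and highest member differences were -1.27 (Smad4) and 0.78 (Tgfbr1) for the overexpression control and -0.78 (Smad7 and Tgfb2) and 0.46 (Tgfb1) for the knockdown control.

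The surrounding pathway was read from 8 lists with 112 symbols, 100 of them on the array; some genes stand in more than 1 list. In knockdown cells against their control, 34 of these genes were called, 19 higher and 15 lower, beside 18.5% called and 8.44% called as higher over all genes. Among the genes that store and release latent TGF-beta, 3 of 11 were higher and 1 was lower, with a list median of 0.81. Ltbp1, which binds latent TGF-beta to matrix, stood at 3.08 in knockdown cells against 0.78 in their control, a difference of 2.29, and was called against all 3 controls. Thbs1, an activator of the latent form, differed by 1.76 and was called against all 3 as well, but differed by 1.01 with normexp and was not called. Fbn1 (fibrillin), the microfibril to which the latent complex is anchored, differed by 2.10 from the knockdown control, and by -0.20 and 0.10 from the overexpression control and normal cells. Furin, which cleaves the TGF-beta precursor, was lower by 1.38 on this scale and passed 2.5-fold against all 3 controls. It did not pass with quantile normalization (-0.89), cyclic loess (-0.68), the percentile over detected probes (-1.07), normexp (-1.21) or in the authors' deposited table (-0.87).

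Of 11 co-receptors and other receptors of the superfamily, 1 was higher and 2 were lower, with a median of -0.26. Bmpr2, the type II BMP receptor, differed by 1.56 (0.49 with normexp, not called), and the activin receptors Acvr2b and Acvr1b by -2.12 and -1.33. Acvr1b missed 2.5-fold against the overexpression control, at -0.54. Of 9 readable ligands, 3 were higher (Bmp6 3.23, Inhbb 2.35 and Bmp4 2.01) and 2 lower (Inhba -2.25 and Bmp2 -1.63). Bmp6, a ligand known from liver for its control of hepcidin, and Inhba, the activin A subunit, were called against all 3 controls. Bmp4 and Bmp2 were called against the knockdown control only, and the second Inhbb probe gave -1.22, the opposite sign.

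Among extracellular inhibitors and the pseudoreceptor, 1 of 10 was higher and 3 were lower, with a median of -0.45. Fmod (fibromodulin), a matrix proteoglycan that binds TGF-beta, stood at 4.08 in knockdown cells against 6.92 in their control, a difference of -2.84, and was called against all 3 controls. Bambi, the receptor-like protein without a kinase that blocks signalling, differed by -2.06 from the knockdown control and -1.37 from the overexpression control, and by -0.88 from normal cells. Fstl1 was higher by 3.15 on its main probe and by 0.98 on the second. The 2 probes of Bgn (biglycan) differed in sign, at -1.35 and 1.24, and the call on its main probe was lost in 7 of 11 other settings. None of the 3 SMADs of the BMP branch on the array passed 2.5-fold (Smad1 0.55, Smad5 0.47 and Smad9 0.29). Of 15 cofactors, corepressors and turnover factors, 1 was higher (Crebbp, the CBP coactivator, 1.42) and 3 lower: Pmepa1 (-2.01) and Tgif1 (-1.48), which both restrain SMAD signalling, and Foxh1 (-1.69), a DNA-binding partner of SMAD2. The calls of Crebbp and Tgif1 were each lost in 6 of 11 other settings: Crebbp differed by 0.33 with normexp, and Tgif1 by -0.82 with cyclic loess and by 0.10 against normal cells. Pmepa1 differed by -0.92 from normal cells and by -1.31 from its control with cyclic loess, both short of 2.5-fold.

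**Figure D3:**
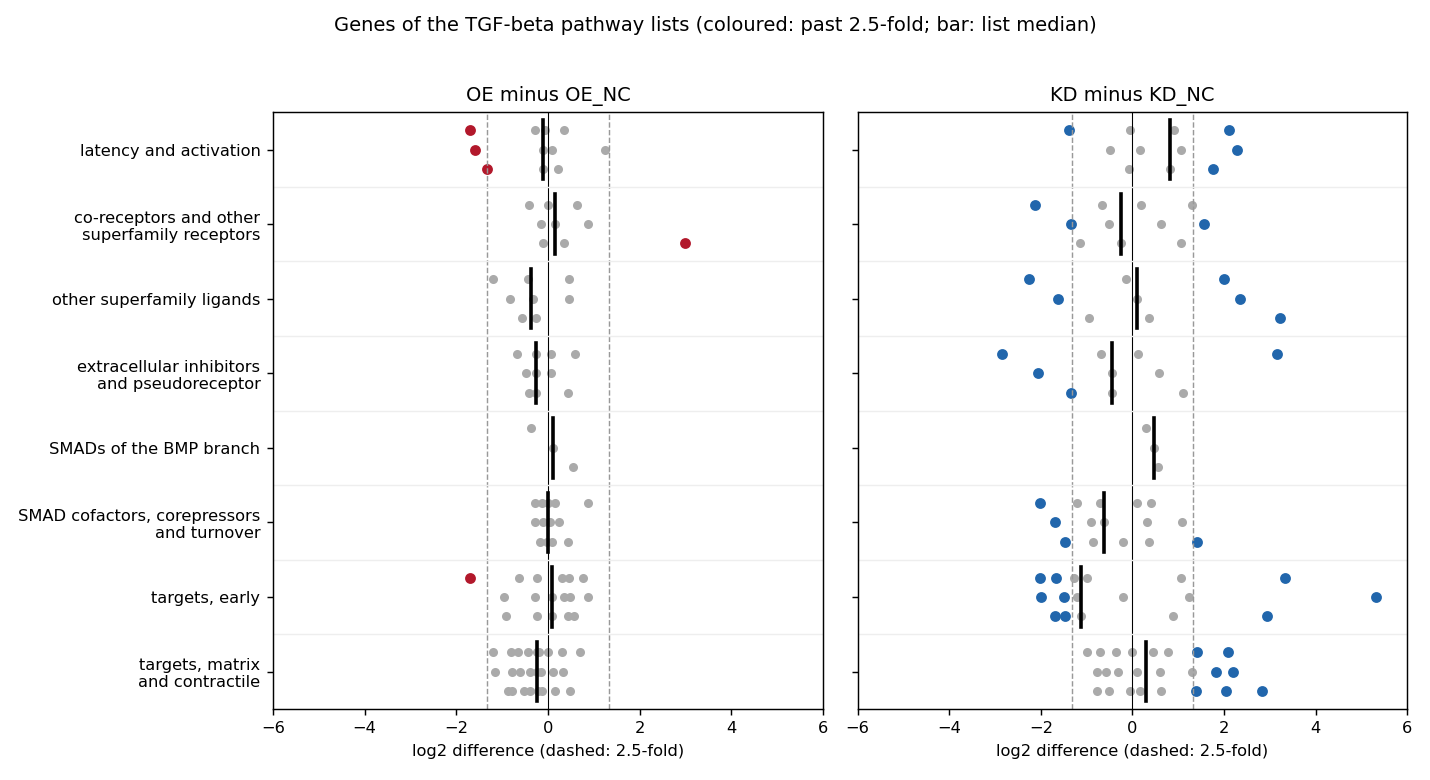
Log2 difference of each gene of the 8 pathway lists on the array labelled overexpression minus its negative control (left) and the knockdown array minus its own (right). Each point is a gene, coloured where it passed 2.5-fold, and the black bar is the list median. On the right, early targets lie on both sides, from -2.01 to 5.31, and the coloured matrix and contractile targets all lie on the high side.

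Genes that TGF-beta is known to induce did not move one way in knockdown cells. Of 17 early targets, 3 were higher and 6 lower, with a list median of -1.12. The higher ones included Edn1 (endothelin) and Ccn2 (connective tissue growth factor). Edn1 read 2.33 in knockdown cells and -2.98 in their control, -2.58 on the array labelled overexpression and -0.87 in its control, and -1.45 in normal cells. It was 39.7-fold higher than in the knockdown control and 9.21-fold and 13.7-fold higher than in the overexpression control and normal cells. Ccn2 differed by 2.94 from the knockdown control, and by 1.15 from the overexpression control, short of 2.5-fold.

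The lower early targets included Pmepa1, Snai1, Cdkn1a and Junb. Snai1, a repressor of epithelial genes, was lower by 2.00 and was called against all 3 controls. Cdkn1a, the cell cycle inhibitor p21, was lower by 1.70 and Junb by 1.66 against the knockdown control. Against normal cells they differed by 0.05 and 0.42, and from the overexpression control by -0.90 and -1.29, none past 2.5-fold. Against their own control they also fell short of 2.5-fold with quantile normalization (-1.14 and -1.11), cyclic loess (-0.92 and -0.95) and in the authors' deposited table (-1.14 and -1.09). Pmepa1 and Tgif1 stand in this list and in that of the cofactors, and are the same values in both.

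Of 24 readable matrix and contractile targets, 7 were higher and none was lower, with a median of 0.30. Tagln (transgelin) stood at 2.91 in knockdown cells against 0.09 in their control, and Loxl2, a collagen cross-linking enzyme, at 0.10 against -1.99. Snai2, a relative of Snai1, stood at -0.93 against -3.12. These 3 were called as higher against all 3 controls. Cdh1 (E-cadherin), which TGF-beta is known to lower, was also higher, by 2.05, on a dim probe. With normexp it differed by 0.21 and was not called, and it was left out where a probe had to be above background on all 5 arrays. The fibrillar collagens Col1a1 (-0.52), Col1a2 (-0.99) and Col3a1 (-0.78), fibronectin (Fn1, -0.71) and smooth muscle actin (Acta2, 0.16) did not pass 2.5-fold. The cell type markers overlap with these lists, and Vim is counted in both. Among 10 stellate and fibroblast markers, knockdown cells had 1 higher and 1 lower (Vim 1.41 and Pdgfrb -2.07). None of 5 leukocyte markers was past 2.5-fold, beside 18.5% of all genes called. Among endothelial markers 1 of 4 was higher, and among the 6 readable hepatocyte markers 1 was higher and 1 lower. Among the 3 readable cholangiocyte and progenitor markers 1 was higher (Krt7, by a bound of 2.22) and 1 lower: Krt19 (keratin) stood at -4.79 in knockdown cells against -2.21 in their control, a difference of -2.58.

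**Figure D4:**
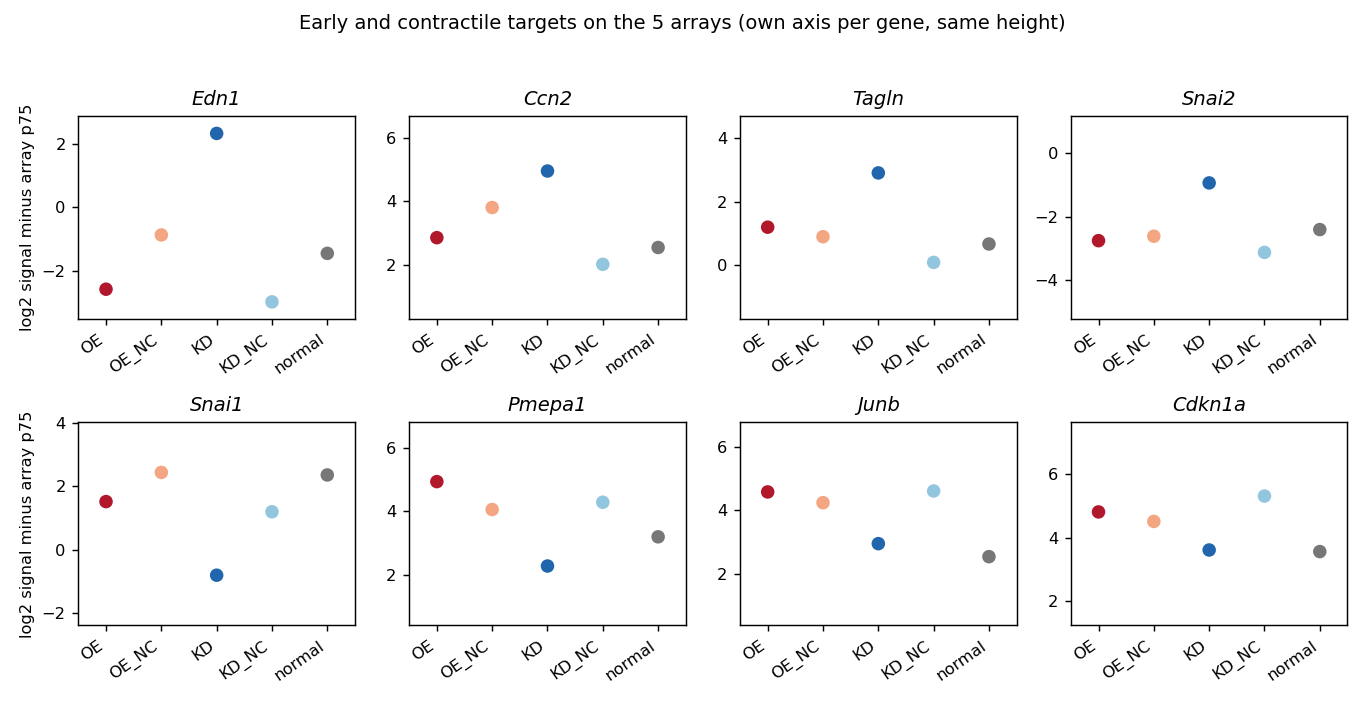
Log2 signal minus the array's 75th percentile of 8 target genes on the 5 arrays, with an axis of its own but the same height for each gene. The knockdown point is the highest for Edn1, Ccn2, Tagln and Snai2 and the lowest for Snai1 and Pmepa1. For Junb and Cdkn1a the normal array lies below it.

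On the array labelled overexpression, 5 genes of the 8 lists were called, 1 higher and 4 lower, beside 2.69% called and 1.69% called as higher over all genes. Bmpr2 was 2.99 log2 units higher (2.18 to 3.80), though it was not well above background in the overexpression control. It was 2.09 above the knockdown control and 2.34 above normal cells. With normexp it was 0.92 above the overexpression control and was not called. The 4 lower genes were Fbn1 (-1.70), Ltbp2 (-1.60), Nrros (-1.33) and Edn1 (-1.71). When the knockdown control took the place of the overexpression control, these differences were 0.60, 0.67, -0.80 and 0.40, so none was past 2.5-fold and 3 of the 4 turned. Against normal cells they were -1.39, -1.70, -1.13 and -1.13. Fbn1 and Ltbp2 were thus still called as lower there, with 16.4% of all genes called. The second Ltbp2 probe gave -0.17 against the overexpression control. Neither SMADs of the BMP branch nor cofactors held a called gene, and the early and matrix targets had medians of 0.08 and -0.25.

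Among the 10671 other genes with a usable profile, the closest to each called member were found by the root mean square difference of the levels over the 5 arrays, each gene centred on its own mean. For Tgfbr2 these were Itfg2 (0.07 log2 units), Cyb5b (0.08) and Oscp1 (0.08). For Smad2 they were Spag9 (0.09), Senp2 (0.11) and Mfn1 (0.12), and for Smad4 they were Cd151 (0.08), Mindy1 (0.09) and Plaur (0.10). Between members the same measure was 0.23 for Tgfbr2 and Smad2, 0.51 for Smad2 and Smad4, and 0.55 for Tgfbr2 and Smad4. Tgfbr1 was the member least like Tgfbr2 (1.50) and Smad2 (1.60). The measure describes 5 arrays, and says nothing about shared function or control.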

How the data were processed

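The submitters deposited scanner files in which each spot has a processed signal, an intensity that Agilent Feature Extraction (11.0.1.1 per the file headers, 9.1 per the submitters' processing notes) had already corrected for background. They also deposited a table of log2 values, in which the authors left the scaling step unnamed; it served as an alternative. From the intensities, control spots and spots marked as outliers were left out, replicate spots averaged, log2 taken and the 75th percentile of each array subtracted. Probes were named through RefSeq accessions, and a gene was read from its brightest probe. A value not well above background was raised to the lowest value well above background on its array if it lay below that, which makes the difference a bound. Alternatives used limma 3.58.1 (quantile, cyclic loess, normexp with offset 50 on the median pixel signal), other percentiles, filters and fold thresholds. The calling step was run on simulated data, with known changes in bright probes and noise from the scanner error alone. That run checks the code, and cannot show how calls hold for dim probes or between cultures. All 9 members, the called list genes with the largest differences (up to 4 per list and direction) and the 3 genes closest in profile to each called member are named, with further genes chosen after their values were seen: Smad1, Smad5, Smad9, the collagens, Fn1, Acta2, Vim, Pdgfrb and the markers. One gene that the rule names is counted but not reported here by name. The members and lists were chosen with earlier results of these data known. The number of arrays limits the precision.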

Additional observations from a re-analysis of the deposited data

How the results depend on the processing

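No paired analysis was possible because every group has 1 array. Tgfbr2 and Smad2 were called in knockdown cells against their control under all 9 other scalings and filters. The members called there were 4 at a fold of 2, beside 31.5% of all genes, and 1 at a fold of 4, beside 5.35%. Against the overexpression control 5 were called, beside 28.8% of all genes. With the overexpression virus 0 members were called at a fold of 4, with normexp or with another control, where Smad4 turned to -0.14 against the knockdown control. Between the negative controls 1 was called with the array median, quantile normalization or the authors' deposited table, and 0 with normexp or a fold of 4. Between the overexpression control and normal cells 1 was called (0 in the values above) with the percentile over detected probes, the array median, the mean of probes or a fold of 2. Of 392 recomputed member differences, 324 moved by less than the spot reading error. In 24 the sign changed, and 1 of these, that of Smad4, was a called difference.

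Genes called, over all genes, were 4028, 684 and 1424 at a fold of 2, at a fold of 4 and with normexp in knockdown cells against their control, 3690 against the overexpression control and 4187 against normal cells. For the overexpression virus they were 715, 73 and 77, 749 with no filter, 488 against the knockdown control and 2232 against normal cells. Between the negative controls they were 1973, 270 and 387, with 1558 unfiltered. For the overexpression control against normal cells they were 4146, 713 and 803, with 4023 unfiltered and 1522 with cyclic loess. For the knockdown control against normal cells they were 3747, 790 and 759, with 3387 unfiltered.

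Scaling moved the share of called genes that were higher. In knockdown cells it was 45.7%, against 71.2% with the percentile over detected probes, 56.6% with cyclic loess, 33.5% with the array median and 34% with normexp, and the median over all genes ran from -0.42 to 0.11. For the overexpression virus it was 62.7%, against 50.2% with the array median, 49.4% with normexp and 52% in the authors' deposited table. Between the negative controls it was 60.7%, against 41.6% with the array median and 46% with normexp. Against normal cells it was 43.4% for the overexpression control and 42.6% for the knockdown control, and ran from 24.4% to 89.5% and from 29.7% to 76% over the scalings.

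The pathway lists, with 100 symbols on the array, were recomputed under settings added after the data were seen. In knockdown cells 19 of these genes were called at a fold of 4, beside 5.35% of all genes. For the overexpression virus 9 were called at a fold of 2, 1 at a fold of 4 and 2 with normexp. Against normal cells 20 were called for that virus, beside 16.4% of all genes. Counts over all genes at the other settings are given above. Of the 30 named list genes in knockdown cells, 12 were called under all 11 settings other than the fold, among them Ltbp1, Bmp6, Inhba, Fstl1, Fmod, Foxh1, Edn1, Snai1, Tagln, Snai2 and Loxl2. None of the 5 named for the overexpression virus was. The cause of these changes was not tested.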
